A study of Homo sapiens with 4 samples.

Results

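The mitochondrial genome of OVCAR3 cells was followed at the level of RNA after treatment with etoposide. Its genes were taken as those whose names start with MT- on the mitochondrial chromosome of the deposited files. There were 37 of them among 60605 annotated genes: 13 mRNAs, 2 rRNAs and 22 tRNAs. All 37 passed the filter on low values (a mean FPKM of at least 0.1) and were tested among 22185 genes.

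OVCAR3 (NIH-OVCAR3) is a cell line from the malignant ascites of an ovarian adenocarcinoma and serves as a model of high-grade serous carcinoma. Etoposide is a topoisomerase II poison that leaves double-strand breaks in DNA. Cells of both groups were first held with nocodazole, which blocks the mitotic spindle, at 100 ng/ml for 16 h and were released into fresh medium for 3 h. The etoposide group then received 1.7 µM etoposide for 24 h and the control group its solvent, DMSO, with 2 biological replicates in each group. The comparison asks how gene expression differs after DNA damage in this line, and p-values rest on the spread between those replicates. In such bulk RNA, fewer cells and less RNA per cell cannot be told apart. The FPKM and coverage of the files correspond to between 47690000 (etoposide replicate 1) and 66500000 (DMSO replicate 2) read pairs of 200 bases in a library, and 13482 to 13627 genes reached an FPKM of 1. FPKM divides the fragments of a transcript by its length in kilobases and by the library's mapped fragments, so that levels of genes of different length can be set side by side. All 10 markers of serous and epithelial cells were measured, led by KRT8, KRT18 and KRT7, while 7 fibroblast markers summed to 6.97 to 8.42 FPKM and 6 leukocyte markers to 1.19 to 1.73 FPKM in a library. The summed FPKM of the epithelial markers was 3088 and 2736 with DMSO and 2131 and 2203 with etoposide, and its part in the results was not tested. KRT8 (1266, 1055, 772.5 and 821.4 FPKM, in the same order) and KRT18 (943.8, 835.3, 611.3 and 639.0) weighed most in it. Of the 10 markers, 7 were lower in both etoposide libraries (19.0% of all genes tested). EPCAM was higher in both (28.9% of all genes tested), and WT1 and CDH1 overlapped between the groups.

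Human mitochondrial DNA is a small circle that the cell copies and transcribes with its own nuclear-encoded enzymes. Both strands are transcribed into long precursors, and tRNAs that lie between the other genes are cut out, which frees the mRNAs and rRNAs. The mRNAs encode core subunits of respiratory complexes I, III and IV and of ATP synthase, while the rRNAs and tRNAs serve the translation of those mRNAs inside the organelle. In the files, 12 of the 13 mRNAs, both rRNAs and 14 of the 22 tRNAs lie on the plus strand, and MT-ND6 and the other 8 tRNAs on the minus strand. Coordinates follow GRCh38, whose mitochondrial chromosome has 16569 bases and is called chrM in the reference (hg38).

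The sequences of 5 tRNA genes are shown first, 5′ to 3′ on their own strand, with the anticodon in capitals. MT-TS1 and MT-TM had the widest fold changes, and MT-TI, MT-TC and MT-TV differed more between the groups than between replicates. So did MT-TW, MT-TN and MT-TY, whose sequences are not shown. How often this holds over all genes tested was not counted, so it does not set these genes apart. MT-TS1 carries serine and lies at chrM:7446-7514 on the minus strand. MT-TM carries methionine (chrM:4402-4469, plus strand) and MT-TI isoleucine (chrM:4263-4331, plus strand). MT-TC carries cysteine (chrM:5761-5826, minus strand). MT-TV carries valine (chrM:1602-1670, plus strand) and lies between the 2 rRNA genes.
MT-TS1: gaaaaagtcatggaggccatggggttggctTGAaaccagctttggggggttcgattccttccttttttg
MT-TM: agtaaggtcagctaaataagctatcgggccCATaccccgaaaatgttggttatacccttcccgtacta
MT-TI: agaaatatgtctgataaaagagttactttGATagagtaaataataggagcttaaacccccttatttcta
MT-TC: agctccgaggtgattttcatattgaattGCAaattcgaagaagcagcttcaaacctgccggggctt
MT-TV: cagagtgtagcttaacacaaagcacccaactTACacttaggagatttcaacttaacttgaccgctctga

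The tRNA genes are 59 to 75 bases long, which is shorter than 1 read of 100 bases. A read of full length over a tRNA gene therefore also covers its neighbours, and MT-TS1 abuts the last base of MT-CO1 (7445) with no gap. StringTie was run without a strand option, so that reads of MT-TS1 and reads of the opposite strand at the same place cannot be told apart. The same limit holds for MT-ND6 and the other minus-strand genes.

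Other genes share bases on the same strand. MT-ATP8 and MT-ATP6 share 46 bases and MT-ND4L and MT-ND4 share 7, each pair being carried by a common mRNA. The stretches are given with 12 bases on either side, at chrM:8515-8584 and chrM:10748-10778, and capitals mark the bases that belong to both genes. Reads over these capitals could be split between the genes by the counting.
MT-ATP8 and MT-ATP6: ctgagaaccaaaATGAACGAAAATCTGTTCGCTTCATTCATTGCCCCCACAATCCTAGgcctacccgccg
MT-ND4L and MT-ND4: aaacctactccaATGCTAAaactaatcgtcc

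The genes are also known for stop codons that are completed only when a poly(A) tail is added. Of the 13 mRNAs, 6 have a length that is no multiple of 3 and end in T or TA, as the last bases of their genes show (capitals mark the incomplete codon).
MT-ND1 (chrM:4249-4262): ccccctcaaaccTA
MT-ND2 (chrM:5499-5511): ctaataatcttaT
MT-CO3 (chrM:9978-9990): tgatgagggtctT
MT-ND3 (chrM:10392-10404): gactgaaccgaaT
MT-ND4 (chrM:12125-12137): gggttttcctctT
MT-CYB (chrM:15875-15887): ctcaaatgggccT

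The share of mitochondrial RNA overlapped between the groups. The 37 genes took 22.6% and 21.6% of all TPM (a measure per length whose total is the same in every library) with DMSO, and 21.9% and 21.1% with etoposide. The share was highest in DMSO replicate 1 and lowest in etoposide replicate 2. The groups differed by −0.53 percentage points (exact two-sided permutation test, p = 0.667), and by −0.025 without DMSO replicate 1 and −1.04 without DMSO replicate 2. As a share of estimated fragments, which are not divided by length, the 37 genes took 10.1% and 9.05% with DMSO and 9.10% and 8.87% with etoposide. With 2 libraries per group this test cannot give a p below 0.333. The mRNAs alone took 18.5% and 17.6% with DMSO and 17.9% and 17.7% with etoposide, the rRNAs 1.30%, 1.36%, 1.36% and 1.20%, and the tRNAs 2.80%, 2.62%, 2.62% and 2.24%, in the same order of libraries.

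No single mitochondrial gene passed the test for etoposide against DMSO. With limma on log2(FPKM + 0.1) and Benjamini-Hochberg adjustment, 0 of 37 were called in either direction, and their adjusted p-values ran from 0.337 to 0.987. The background was 0 of 22185 genes in either direction (0.0%), with a smallest adjusted p of 0.169. At an unadjusted p under 0.05, 3 mitochondrial genes were lower and 1 was higher with etoposide, where 4.85% and 7.06% of all genes tested were. With limma's voom on estimated fragments, 0 of 37 were called as well.

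The signs of the differences leaned to lower levels with etoposide. The log2 fold change was under 0 for 33 of 37 genes, against 43.8% of all genes tested, and over 0 for 4, against 56.2%, and its median was −0.10, against 0.036 over all genes tested. Both etoposide libraries lay under both DMSO libraries for 12 of 37 (19.0% of all genes tested), and above them for 1 (28.9% of all genes tested). The genes share precursors and libraries and are not independent of each other. DMSO replicate 1 held the highest value for 30 of 37 and etoposide replicate 2 the lowest for 24 of 37. Without DMSO replicate 1 the sign of the fold change turned for 12 of 37, with 7 of 13 mRNAs and 13 of 22 tRNAs under 0. It turned for 2 without DMSO replicate 2, for 4 without etoposide replicate 1 and for 5 without etoposide replicate 2. Why DMSO replicate 1 and etoposide replicate 2 stood apart was not tested.

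In these libraries, made with a kit for mRNA, the 13 mRNAs had the highest levels as a class. Their means lay between 2343 and 9965 FPKM, a range that also holds MT-RNR2 (4257). Levels with etoposide were slightly under those with DMSO for 12 of 13, and the log2 fold changes were small, from −0.14 for MT-ND4 to 0.0037 for MT-ATP8, with a median of −0.083. Replicates of a group differed by similar amounts: DMSO replicate 2 was under replicate 1 for 13 of 13, by a median of −0.13 on the log2 scale, and etoposide replicate 2 was under replicate 1 for 9 of 13, by a median of −0.040. Adjusted p-values (limma) were 0.535 or more. Without DMSO replicate 1, the median log2 fold change was −0.0080 with 7 of 13 under 0, and without DMSO replicate 2 it was −0.16 with 13 of 13 under 0. On the TPM scale the median was −0.016 with 10 of 13 under 0.

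**Figure D1:**
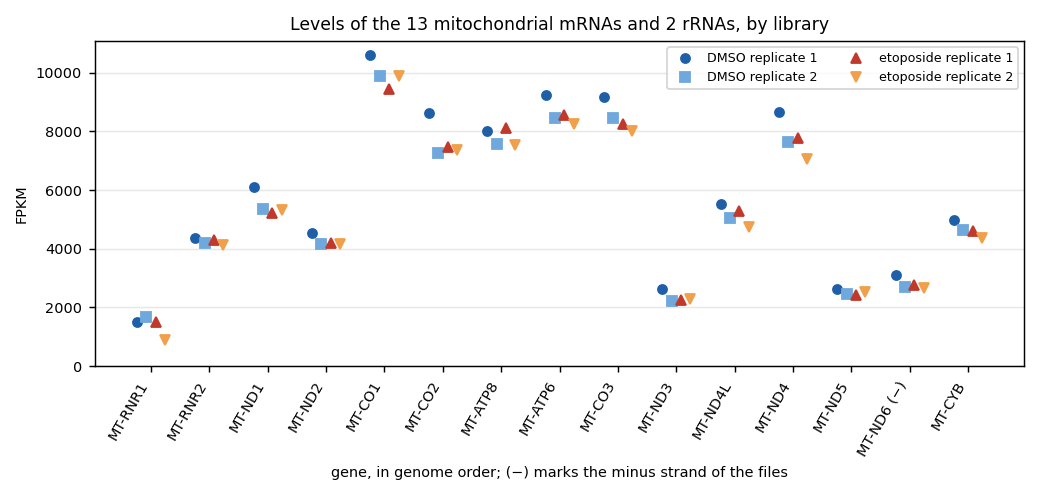
FPKM (vertical axis, linear from 0) of the 13 mRNAs and 2 rRNAs in genome order, 1 point per library (blue, DMSO replicates; red and orange, etoposide replicates). The points of a gene lie close together for the mRNAs, whose levels span 2343 to 9965 FPKM on average, while MT-RNR1 has 3 libraries at 1502 to 1665 and etoposide replicate 2 at 889.

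The order of the mRNAs hardly differed between libraries. MT-CO1 was highest and MT-ND3 lowest in every library, and 8 of 13 held the same rank in all 4 libraries. MT-CO2, MT-ATP8 and MT-ND4 changed places with each other in the middle of the order, and so did MT-ND1 and MT-ND4L.

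Complex I, the entry point of electrons from NADH, takes 7 subunits from the mitochondrial genome. MT-ND1 lay at 6092 and 5356 FPKM with DMSO and at 5233 and 5332 with etoposide. Its etoposide libraries were both under its DMSO libraries, but by less than the DMSO libraries differed from each other (log2 fold change −0.11, SE 0.085, adjusted p = 0.584 with limma). MT-ND4, the most abundant of the 7, lay at 8665 and 7646 FPKM with DMSO and at 7765 and 7069 with etoposide. Its log2 fold change of −0.14 (SE 0.092, adjusted p = 0.549 with limma) was the most negative among the mRNAs, with overlapping groups. MT-ND4L, its partner on the same mRNA, lay at 5518 and 5045 FPKM with DMSO and at 5274 and 4742 with etoposide. Per kilobase, MT-ND4L thus lay at 0.637, 0.660, 0.679 and 0.671 of MT-ND4, with both etoposide libraries above both DMSO libraries (exact permutation test, p = 0.333, the smallest possible).

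The other complex I mRNAs were measured at 2 levels. MT-ND2 lay at 4543 and 4165 FPKM with DMSO and at 4189 and 4175 with etoposide. MT-ND3 was the lowest mRNA, with 2611 and 2216 FPKM against 2248 and 2298. MT-ND5 lay at 2635 and 2461 FPKM with DMSO and at 2439 and 2523 with etoposide. For these 3 genes the etoposide libraries fell within or next to the DMSO range, the groups overlapped, and the log2 fold changes were −0.057, −0.082 and −0.038.

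MT-ND6 is the only mRNA of the minus strand and also belongs to complex I. It lay at 3109 and 2703 FPKM with DMSO and at 2767 and 2646 with etoposide, with overlapping groups and a log2 fold change of −0.099 (SE 0.089, adjusted p = 0.649 with limma). Set against the mean of the 12 plus-strand mRNAs in the same library, which removes the scaling of the library, MT-ND6 lay at 0.462 and 0.443 with DMSO and at 0.451 and 0.444 with etoposide (exact permutation test, p = 1). The etoposide ratios fell between the DMSO ratios.

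Complex III, which passes electrons to cytochrome c, takes cytochrome b from MT-CYB. It lay at 4988 and 4654 FPKM with DMSO and at 4606 and 4356 with etoposide. Both etoposide libraries were under both DMSO libraries (log2 fold change −0.11, SE 0.075, adjusted p = 0.562 with limma). The log2 difference of the groups, −0.105, was barely wider than those between replicates, −0.1 with DMSO and −0.0804 with etoposide. The nearest libraries of the groups lay closer together than the replicates of either group.

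Complex IV, cytochrome c oxidase, reduces oxygen and has 3 core subunits from the mitochondrial genome. MT-CO1 lay at 10610 and 9899 FPKM with DMSO and at 9462 and 9889 with etoposide. MT-CO2 lay at 8626 and 7264 FPKM with DMSO and at 7480 and 7355 with etoposide. MT-CO3 lay at 9184 and 8444 FPKM with DMSO and at 8251 and 8024 with etoposide. MT-CO1 and MT-CO3 did not overlap between the groups and MT-CO2 did, and their log2 fold changes were −0.083, −0.094 and −0.11 in that order.

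ATP synthase, which turns the proton gradient into ATP, takes subunits a and A6L from MT-ATP6 and MT-ATP8. MT-ATP6 lay at 9246 and 8459 FPKM with DMSO and at 8556 and 8271 with etoposide (log2 fold change −0.072). MT-ATP8, on the same mRNA, lay at 8027 and 7583 FPKM with DMSO and at 8112 and 7542 with etoposide and was the only mRNA with a fold change over 0, a sign that turned when libraries were centred on the median of the nuclear genes or corrected for length and GC content. MT-ATP8 therefore lay at 0.868, 0.896, 0.948 and 0.912 of MT-ATP6 per kilobase, higher in both etoposide libraries (exact permutation test, p = 0.333).

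The makeup of the mRNA pool by complex was close to constant. Complex I took 39.6% and 39.0% of the summed mRNA FPKM with DMSO and 39.2% and 38.8% with etoposide. Complex III took 5.95%, 6.13%, 6.03% and 5.87%, and complex IV 33.9%, 33.7%, 33.0% and 34.0%. These 3 shares overlapped between the groups (exact permutation p = 0.667, 0.667 and 1). ATP synthase took 20.6% and 21.1% with DMSO and 21.8% and 21.3% with etoposide, a difference of 0.70 percentage points with groups that did not overlap (exact permutation p = 0.333). These are 4 shares of the same pool and are bound to each other.

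The mRNAs with an incomplete stop codon, shown above, had a median log2 fold change of −0.11, and 3 of 6 did not overlap between the groups (MT-ND1, MT-CO3 and MT-CYB, all lower with etoposide, as 19.0% of all genes tested were). The 7 with a complete codon had a median of −0.077, and 1 of 7 did not overlap (MT-CO1, lower). Both medians lay within the differences between replicates.

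The rRNAs stood apart from each other. MT-RNR2, the 16S rRNA of the large mitoribosomal subunit (MT:1671-3229), lay at 4380 and 4208 FPKM with DMSO and at 4297 and 4144 with etoposide (log2 fold change −0.025, SE 0.069, adjusted p = 0.897 with limma). Its libraries interleaved, and its sign turned on the TPM scale and when libraries were scaled to nuclear genes. MT-RNR1, the 12S rRNA of the small subunit (MT:648-1601), lay at 1502 and 1665 FPKM with DMSO and at 1507 and 889 with etoposide. Etoposide replicate 2 alone was low, and replicate 1 lay between the DMSO libraries. The log2 fold change of MT-RNR1 was −0.45 (SE 0.24, adjusted p = 0.468 with limma). It was −0.83 with an adjusted p of 0.0156 (limma) when etoposide replicate 1 was left out and −0.069 with an adjusted p of 0.978 when etoposide replicate 2 was. MT-RNR1 lay at 0.343 and 0.396 of MT-RNR2 with DMSO and at 0.351 and 0.214 with etoposide.

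Relative to the mRNAs, the rRNAs summed to 0.0702 and 0.0774 of the summed mRNA FPKM with DMSO and to 0.0760 and 0.0678 with etoposide (exact permutation test, p = 0.667). The libraries were made with a kit for mRNA, and the files do not show how much rRNA the cells held.

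**Figure D2:**
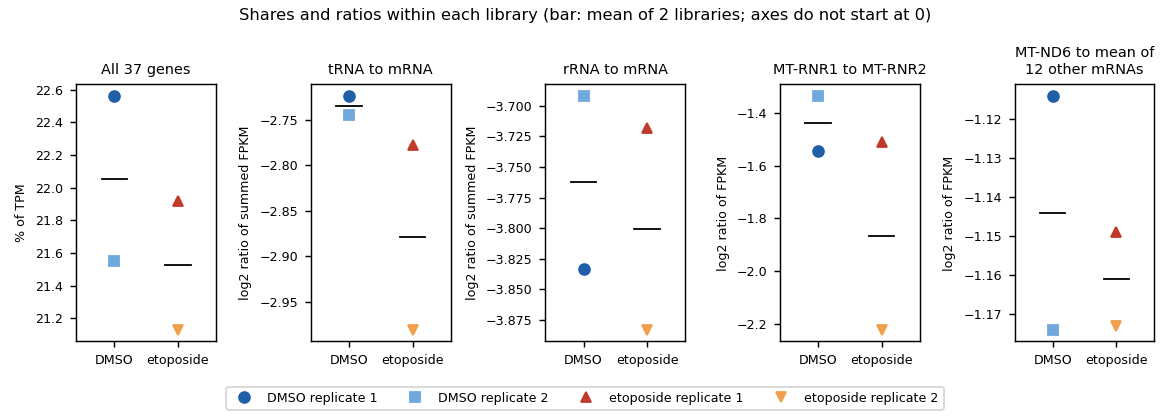
Share of the 37 genes in all TPM (first panel, %) and log2 ratios between classes of mitochondrial RNA (other panels), 1 point per library and a bar at the mean of each group; the vertical axes do not start at 0. The tRNA to mRNA ratio is lower in both etoposide libraries, while in the MT-RNR1 to MT-RNR2 panel etoposide replicate 2 (0.214 on the linear scale) stands alone under the other 3 libraries.

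The 22 tRNAs were measured at far lower levels per kilobase than the mRNAs, from 40.6 FPKM for MT-TF to 1705 FPKM for MT-TC on average. They rested on the equivalent of 74 to 9545 read pairs per gene and library, against 37086 or more for each mRNA. Those of the minus strand had a median level of 929 FPKM (8 genes) and those of the plus strand of 144 FPKM (14 genes). Levels were lower with etoposide for 19 of 22, with a median log2 fold change of −0.14, and for 16 of 22 on the TPM scale (median −0.074). The etoposide libraries were both under the DMSO libraries for 8 of 22 (19.0% of all genes tested) and both above for 1 (28.9%). Replicates differed as much, from −0.49 to 0.033 between the DMSO libraries and from −1.26 to 0.34 between the etoposide libraries on the log2 scale. Etoposide replicate 2 held the lowest value for 15 of 22. Full-length reads over these genes also cover neighbours and the kit was for mRNA, so that the files do not show how much tRNA the cells held.

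**Figure D3:**
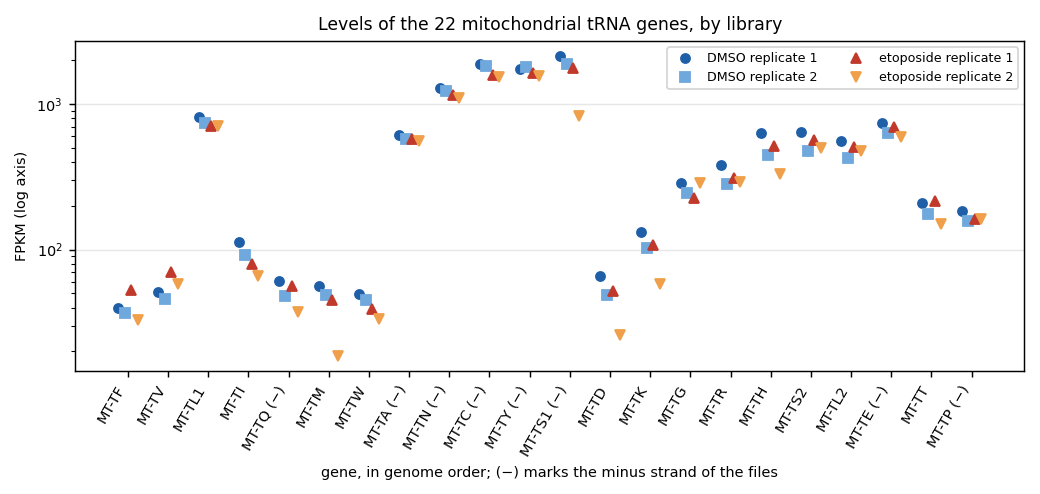
FPKM (vertical log axis) of the 22 tRNA genes in genome order, 1 point per library (blue, DMSO replicates; red and orange, etoposide replicates; minus signs mark genes of the minus strand). MT-TC lies lower in both etoposide libraries and MT-TV higher, while for MT-TM, MT-TS1, MT-TD and MT-TK etoposide replicate 2 lies far under the other 3 points.

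The 4 mitochondrial genes with an unadjusted p under 0.05 were tRNAs, and in each the groups lay further apart than the replicates of either group. Picking genes by a small p in these same data favours such a spacing. MT-TI lay at 113 and 92.1 FPKM with DMSO and at 79.3 and 66.3 with etoposide (log2 fold change −0.50, SE 0.13, adjusted p = 0.337 with limma). MT-TW, the tryptophan tRNA at MT:5512-5579, lay at 49.7 and 45.1 FPKM with DMSO and at 39.2 and 33.4 with etoposide (−0.39, SE 0.10, adjusted p = 0.337 with limma). MT-TC lay at 1872 and 1823 FPKM with DMSO and at 1593 and 1532 with etoposide (−0.24, SE 0.068, adjusted p = 0.342 with limma). These 3 were lower with etoposide. With any of the 4 libraries left out, log2 fold changes ran from −0.65 to −0.35 for MT-TI, −0.50 to −0.27 for MT-TW and −0.27 to −0.21 for MT-TC. Their groups did not overlap, so that the sign could not turn when 1 library was left out.

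MT-TV was the only tRNA with both etoposide libraries above both DMSO libraries. It lay at 50.9 and 46.0 FPKM with DMSO and at 70.5 and 57.7 with etoposide (log2 fold change 0.40, SE 0.12, adjusted p = 0.348 with limma). With any of the 4 libraries left out the log2 fold change ran from 0.25 to 0.54, and without overlap of the groups its sign could not turn. The tRNA is also built into the human mitoribosome, and its gene is bordered by MT-RNR1 and MT-RNR2. Its values rested on the equivalent of 211 to 233 read pairs per library, and neither rRNA was higher with etoposide in both libraries.

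The widest fold changes came from etoposide replicate 2. MT-TM lay at 56.3 and 48.9 FPKM with DMSO and at 44.9 and 18.7 with etoposide (log2 fold change −0.85, SE 0.45, adjusted p = 0.489 with limma). MT-TS1 lay at 2146 and 1870 FPKM with DMSO and at 1765 and 831 with etoposide (−0.73, SE 0.37, adjusted p = 0.479 with limma). In both, etoposide replicate 1 lay just under the DMSO libraries and replicate 2 lay far under it. MT-TD, the aspartate tRNA at MT:7518-7585, lay at 66.1 and 48.4 FPKM with DMSO and at 51.6 and 26.1 with etoposide (−0.62). MT-TK, the lysine tRNA at MT:8295-8364, lay at 133 and 102 FPKM with DMSO and at 107 and 58.0 with etoposide (−0.56). In these 2, etoposide replicate 1 fell between the DMSO libraries.

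Without etoposide replicate 1, MT-TM, MT-TS1, MT-TD, MT-TK and MT-RNR1 passed an adjusted p of 0.05 (limma), with log2 fold changes of −1.48, −1.27, −1.11, −1.01 and −0.83, where 0.297% of all genes tested were called lower and 0.144% higher. Without etoposide replicate 2, the same genes had log2 fold changes of −0.22, −0.18, −0.13, −0.12 and −0.069 and adjusted p-values of 0.874 or more. MT-TS1 lay at 0.202 and 0.189 of its neighbour MT-CO1 with DMSO and at 0.187 and 0.0840 with etoposide, so that etoposide replicate 2 stood apart also within the library. Leaving out DMSO replicate 2 led to calls for another 4 genes, MT-TL1 (−0.21, adjusted p = 0.0482), MT-TC (−0.26, 0.0459), MT-CO2 (−0.22, 0.0464) and MT-TR (−0.34, 0.0464), all lower with etoposide, where 2.66% of all genes tested were called lower and 6.06% higher. Leaving out DMSO replicate 1 left 0 of 37 called (0.0135% of all genes tested were called higher and 0.00902% lower), and so did leaving out etoposide replicate 2 (0.189% higher and 0.27% lower). With a lone library, its spread is assumed to equal that of the other group.

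**Figure D4:**
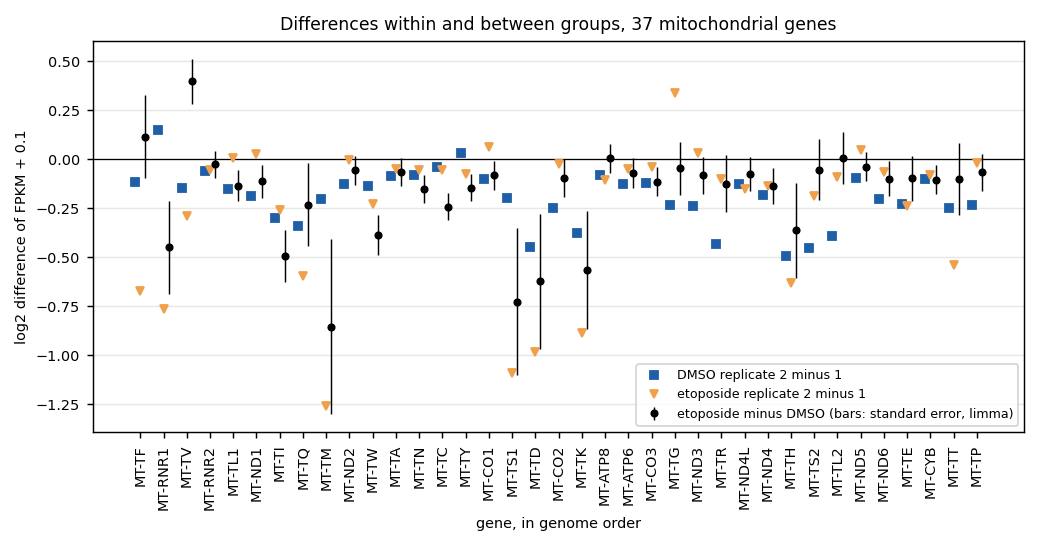
Log2 differences of FPKM + 0.1 (vertical axis) for the 37 genes in genome order: between the DMSO replicates (blue squares), between the etoposide replicates (orange triangles) and between the groups (black points, with bars of 1 standard error from limma). For MT-TM, MT-TS1, MT-TD, MT-TK and MT-RNR1 the etoposide replicates lie further apart than the groups. For MT-TI, MT-TW, MT-TC, MT-TV, MT-TN and MT-TY, and barely for MT-CYB, the groups lie further apart than either pair of replicates. The share of all genes tested with such a spacing was not counted.

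The remaining 14 tRNAs had log2 fold changes from −0.36 (MT-TH) to 0.12 (MT-TF). MT-TH, the histidine tRNA at MT:12138-12206, lay at 633 and 449 FPKM with DMSO and at 516 and 333 with etoposide (log2 fold change −0.36), with overlapping groups. MT-TN and MT-TY, the asparagine and tyrosine tRNAs next to MT-TC on the minus strand, did not overlap between the groups: MT-TN lay at 1290 and 1222 FPKM against 1152 and 1108 (−0.15), and MT-TY at 1744 and 1785 against 1636 and 1554 (−0.15). In both, the groups lay further apart than the replicates of either group, a spacing that was not counted over all genes tested. MT-TA, the alanine tRNA of the same cluster, lay at 612 and 576 FPKM with DMSO and at 577 and 558 with etoposide (−0.065), with overlapping groups. MT-TL1, the leucine tRNA behind MT-RNR2, lay at 818 and 735 FPKM with DMSO and at 705 and 707 with etoposide (−0.14) without overlap. MT-TF, MT-TQ, MT-TG, MT-TR, MT-TS2, MT-TL2, MT-TE, MT-TT and MT-TP overlapped between the groups, with log2 fold changes from −0.23 (MT-TQ) to 0.12 (MT-TF).

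Together, the tRNAs summed to 0.151 and 0.149 of the mRNA FPKM with DMSO and to 0.146 and 0.127 with etoposide. The ratio was lower in both etoposide libraries (log2 difference −0.15, exact permutation test, p = 0.333, the smallest possible). Without etoposide replicate 2 the difference was −0.044 and without etoposide replicate 1 it was −0.25.

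Copies of mitochondrial genes in the nuclear genome can take up their reads. Of 231 annotated copies, 33 passed the filter on low values and 6 reached a mean of 10 FPKM, and the 4 highest lie close together on chromosome 1. MTATP6P1 (chr1:633696-634376) lay at 1960 and 1779 FPKM with DMSO and at 1760 and 1716 with etoposide, which is 21.2%, 21.0%, 20.6% and 20.8% of MT-ATP6. MTCO1P12 (chr1:631074-632616) lay at 7.87%, 7.08%, 7.41% and 7.17% of MT-CO1. MTND2P28 (chr1:629640-630683) lay at 15.9%, 15.8%, 16.4% and 16.4% of MT-ND2, and MTND1P23 (chr1:629062-629433) at 4.11%, 3.68%, 3.88% and 3.70% of MT-ND1. The shares were near constant across the libraries.

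Between 11.0% (MT-ND1) and 27.9% (MT-CO1) of the windows of 100 bases in these 4 mitochondrial genes occur letter for letter in the copy, and the longest identical run has 266 bases (MT-ND2). A read from such a stretch cannot be assigned by its own sequence, so that the levels of both partners are uncertain. Whether its mate could place it was not examined. With each copy added to its gene, the median log2 fold change of the 13 mRNAs was −0.086.

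Nuclear genes that serve the mitochondrial genome were grouped by role. The 9 genes of its transcription had a median log2 fold change of 0.097, with 7 over 0 and 0 called, against 0.036 over all genes tested. TFAM, which packages the DNA and starts transcription, lay at 14.6 and 16.4 FPKM with DMSO and at 18.1 and 18.4 with etoposide (log2 fold change 0.24, adjusted p = 0.405 with limma). POLRMT, the RNA polymerase, lay at 13.8 and 12.1 FPKM with DMSO and at 11.4 and 11.1 with etoposide (−0.20, adjusted p = 0.461 with limma). MTERF2 and MTERF4, of the termination factor family, had log2 fold changes of 0.34 and 0.12. The polymerase and TFAM thus lay on opposite sides of 0, each without overlap between the groups. When transcript length and GC content were corrected for, the list had a median of −0.00098 and TFAM a log2 fold change of 0.018.

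The 14 genes of replication and the nucleoid had a median of 0.064 with 9 over 0, 7 of 14 higher in both etoposide libraries (28.9% of all genes tested) and 0 called. DNA2, a helicase and nuclease of nucleus and mitochondria, lay at 6.59 and 7.86 FPKM with DMSO and at 9.96 and 9.68 with etoposide (log2 fold change 0.44, SE 0.12, adjusted p = 0.329 with limma). EXOG, an exonuclease of mitochondrial DNA repair, lay at 3.25 and 3.32 FPKM against 4.30 and 4.19 (0.36, adjusted p = 0.347). MGME1, which trims DNA ends in replication, and PRIMPOL, a primase, had log2 fold changes of 0.23 and 0.23. These 4 genes were named for the smallest p of the list in these same data, which favours groups that do not overlap. They were higher in both etoposide libraries and also once length and GC content were corrected for (0.26, 0.28, 0.17 and 0.15).

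Genes that cut, modify, stabilise or degrade mitochondrial RNA had fold changes on both sides of 0. Of the 17 genes of RNA processing and modification, 13 were over 0 (median 0.064), and of the 16 genes of stability, polyadenylation and decay, 10 were over 0 (median 0.040, and −0.052 with length and GC content corrected for), with 0 called in both lists. NSUN4, which methylates the 12S rRNA, and TRIT1, which modifies tRNAs, had log2 fold changes of 0.21 and 0.25 (0.25 and 0.022 from estimated fragments), and TRMU, which thiolates tRNAs, and HSD17B10, a subunit of mitochondrial RNase P, of −0.20 and −0.18. LRPPRC lay at 24.4 and 26.2 FPKM with DMSO and at 27.0 and 34.8 with etoposide (0.28). SLIRP, with which LRPPRC holds mitochondrial mRNAs in a complex, lay at 193 and 164 FPKM with DMSO and at 157 and 160 with etoposide (−0.17). GRSF1, of the mitochondrial RNA granules, and PTCD3, a mitoribosomal protein, had log2 fold changes of 0.24 and 0.17 (0.059 and 0.12 from estimated fragments). The 8 regulators of biogenesis had a median of 0.055 (−0.041 with the same correction), with NRF1 at −0.18, GABPA at 0.21, ESRRA at −0.14 and GABPB1 at 0.11 (0.031 from estimated fragments).

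The nuclear partners in the respiratory complexes leaned the same way as the mitochondrial mRNAs. Of 37 nuclear subunits of complex I, 32 had a log2 fold change under 0 (median −0.14), and so did 9 of 9 of complex III (median −0.13), 11 of 11 of complex IV (median −0.20) and 17 of 17 of ATP synthase (median −0.14), with 0 called in each. ATP5F1A, the alpha subunit of ATP synthase, had an adjusted p equal to the smallest over all genes tested, a value that genes can share under Benjamini-Hochberg adjustment. It lay at 83.9 and 77.4 FPKM with DMSO and at 48.2 and 48.3 with etoposide (log2 fold change −0.74, SE 0.076, adjusted p = 0.169 with limma). From estimated fragments, for which each transcript's coverage is multiplied by its length before the sum over transcripts, its log2 fold change was −0.11 (adjusted p = 0.518 with limma's voom). ATP5PB, ATP5MC3 and ATP5ME had log2 fold changes of −0.38, −0.23 and −0.22, and of −0.076, −0.15 and −0.22 from estimated fragments. In complex I, NDUFB9, NDUFS8 and NDUFA1 lay at −0.28, −0.29 and −0.22 and NDUFS1 at 0.34, and from estimated fragments NDUFB9 lay at −0.049 and NDUFS1 at 0.039. The fold changes of these 2 genes, of ATP5F1A and of ATP5PB thus depend on whether FPKM or fragments are summed over transcripts. On the FPKM scale, in complex III CYC1, UQCRFS1, UQCR10 and UQCRQ lay between −0.24 and −0.18, and in complex IV COX5A, COX7B, COX6C and COX6B1 lay between −0.28 and −0.20. From estimated fragments, 35 of 37, 9 of 9, 11 of 11 and 17 of 17 were under 0, with medians of −0.093, −0.13, −0.19 and −0.14. As for the mitochondrial mRNAs, DMSO replicate 1 was highest for 31 of 37, 9 of 9, 11 of 11 and 16 of 17 nuclear subunits, and without it the 4 medians were −0.033, −0.058, −0.097 and −0.047.

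**Figure D5:**
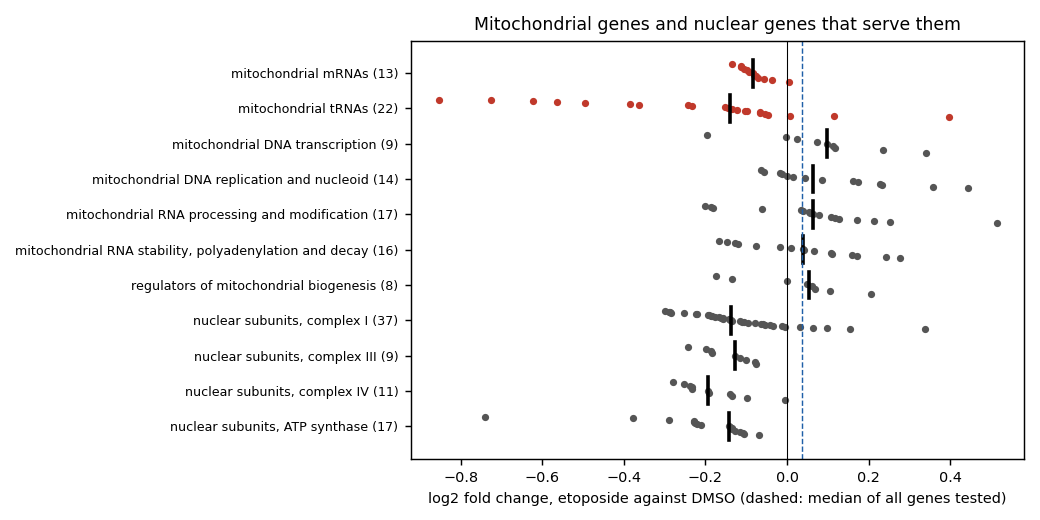
Log2 fold change of etoposide against DMSO (horizontal axis) for each gene of the mitochondrial mRNAs and tRNAs (red) and of 9 lists of nuclear genes (grey), with a black bar at the median of each list, the number of genes in brackets and a dashed line at the median of all genes tested (0.036). The mRNAs form a narrow band around −0.083, the tRNAs spread from −0.85 to 0.40, and the nuclear subunits of complexes III and IV and of ATP synthase lie under 0.

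The nuclear genes of DNA topoisomerases were measured because topoisomerase II is the target of etoposide. TOP2A lay at 38.6 and 46.3 FPKM with DMSO and at 40.9 and 39.5 with etoposide (log2 fold change −0.073). TOP2B lay at 32.2 and 44.1 FPKM with DMSO and at 45.1 and 45.3 with etoposide (0.26, and 0.096 with length and GC content corrected for), and TOP1 had a log2 fold change of 0.050. None of the 3 passed the test (limma, adjusted p of 0.491 or more).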

How the data were processed

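The deposited files cover 4 libraries of OVCAR3 RNA, grouped by their labels into 2 with DMSO and 2 with etoposide. Libraries came from a stranded mRNA kit, with paired reads of 100 bases. Per the file headers and the submitters' processing notes, alignment to GRCh38 used HISAT2, sorting used SAMtools, and StringTie 2.1.7 quantified annotated transcripts of Ensembl release 104 with no strand option. The values that the authors deposited are no counts but a coverage, an FPKM and a TPM for each of 236853 transcripts. The authors' DESeq2 test needs counts and was not applied.

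FPKM was summed per gene. limma 3.58.1 in R 4.3.3 (trend, robust) was fitted on log2(FPKM + 0.1) to the 22185 genes whose mean FPKM was 0.1 or more. Benjamini-Hochberg adjustment was applied. Its check on simulated data drew noise independently for each gene and library, so that shifts shared within a library were not covered. Shares and ratios were compared with exact permutation tests over libraries. Read-pair equivalents are coverage times length over 200 bases. Length and GC content were corrected by loess (span 0.3). Tables and figures used Python 3.11.15, pandas 2.3.3 and matplotlib 3.10.9. Named were all members, up to 4 genes of each list with the smallest p and the 4 highest nuclear copies. Members and lists were chosen with earlier results of these data known. The methods of the study mention transfected cells, which the labels do not, and the labels were followed. Sequences come from hg38.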

Additional observations from a re-analysis of the deposited data

How the results depend on the processing

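In the fits with all 4 libraries (other pseudocounts, filters, scalings, voom, no trend, length and GC correction, replicate block), 0 of 37 mitochondrial genes were called. Over all genes, 0 were called higher and 0 lower, except 6 lower after the length and GC correction. On the TPM scale and scaled to nuclear genes the sign turned for MT-ND2 (0.010 and 0.00060), MT-ND5 (0.030 and 0.020), MT-RNR2 (0.042 and 0.033), MT-TG (0.021 and 0.011) and MT-TS2 (0.014 and 0.0041), and on the TPM scale for MT-TA (0.0019). Centred on nuclear genes and corrected for length and GC content it turned for MT-ATP8 (−0.032 and −0.085) and MT-TL2 (−0.028 and −0.13). The rRNA to mRNA difference was 0.0018 from estimated fragments, and that of MT-ND6 to MT-CYB alone 0.0059. The causes were not tested.

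Medians of nuclear lists moved on the TPM scale, scaled to nuclear genes and centred for transcription (0.16, 0.15 and 0.061; −0.00098 after the length and GC correction) and replication (0.13, 0.12 and 0.029), on the TPM scale and scaled to nuclear genes for RNA processing (0.13 and 0.12; 0.014 after the correction), after the correction for stability and decay (−0.052) and biogenesis (−0.041), and on the TPM scale for complex I subunits (−0.070).

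With each library left out in turn, 0 to 5 mitochondrial genes were called lower, and over all genes 3 to 1344 were called higher and 2 to 590 lower, the highest counts without DMSO replicate 2 (without DMSO replicate 1: 3 and 2; etoposide replicate 1: 32 and 66; etoposide replicate 2: 42 and 60). Log2 fold changes ran from −0.83 to −0.069 for MT-RNR1, −0.054 to 0.0040 for MT-RNR2, −0.049 to 0.056 for MT-ATP8, −0.22 to 0.030 for MT-CO2, −0.12 to 0.0058 for MT-ND2, −0.20 to 0.036 for MT-ND3, −0.087 to 0.012 for MT-ND5, −0.20 to 0.0015 for MT-ND6, −0.22 to 0.022 for MT-TE, −0.22 to 0.45 for MT-TF, −0.22 to 0.12 for MT-TG, −0.19 to 0.20 for MT-TL2, −0.18 to 0.050 for MT-TP, −0.53 to 0.067 for MT-TQ, −0.34 to 0.092 for MT-TR, −0.28 to 0.17 for MT-TS2 and −0.37 to 0.17 for MT-TT. Differences ran from −0.18 to 0.00050 percentage points for the complex III share, −0.84 to 0.23 for complex IV, −0.66 to 0.25 for the mRNA share of TPM and −0.13 to 0.036 for that of rRNA, and on the log2 scale from −0.047 to 0.013 for MT-ND6 to the other mRNAs and −0.12 to 0.045 for rRNA to mRNA. The medians ran from 0.059 to 0.11 for replication and −0.21 to −0.033 for complex I subunits. That of the 22 tRNAs ran from −0.24 to −0.060. The sign of the median turned for stability and decay (−0.023 to 0.095), biogenesis (−0.0079 to 0.11) and topoisomerases (−0.041 to 0.14).

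The labels number the replicates and do not say whether the numbers pair the samples. The differences between replicates 1 and 2 correlated by 0.013 between the groups over 22185 genes. Of the 37 mitochondrial genes, 35 were lower in replicate 2 than in replicate 1 with DMSO and 31 with etoposide. With the replicate number as a block, 0 of 37 genes were called, and no other call changed. The median of the 13 mRNAs stayed at −0.083, since a block cannot change the fold changes in this balanced design. Adding the copies on chromosome 1, and the ratios of single genes and class shares, were chosen after seeing the data. A tRNA gene with 74 to 600 read-pair equivalents has a wider counting error than an mRNA.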
